A study of Homo sapiens with 6 samples.

Results

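The sarcomere genes examined here are 55 genes for the proteins of the contractile unit of striated muscle and for the factors that assemble and maintain it. They were chosen by name, and all 55 were found among the 58735 rows of a table of read counts per gene. The counts come from RD cells, an established human embryonal rhabdomyosarcoma (ERMS) line, which is a tumour line of skeletal muscle type. One group of 3 samples had been transduced with lentivirus carrying a scrambled shRNA (control cells), and another group of 3 with lentivirus carrying an shRNA against TAK1 (TAK1 knockdown cells). TAK1, encoded by MAP3K7, is a kinase that relays signals of cytokines and of transforming growth factor β. Both groups therefore share the cell line and the viral transduction, and they differ in the shRNA. The values describe 1 cell line and, as the study describes its RNA-seq, 1 of its shRNA constructs against TAK1. The labels do not say that the 3 samples of a group were separate cultures, so the p-values below measure the spread between these samples, which may be technical.

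In striated muscle, thick filaments built from myosin slide along thin filaments built from actin, tropomyosin and troponin. Thin filaments are anchored in the Z-disc by alpha-actinin, thick filaments are linked at the M-band by myomesins, and titin spans the distance between Z-disc and M-band. Most of these proteins come as families of genes used in embryonic, fast or slow muscle, and developing muscle exchanges one isoform for another as it matures. Rhabdomyosarcoma cells carry the myogenic transcription factors of developing muscle but stop short of forming mature fibres, and the sarcomere genes are among the targets of those factors.

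The libraries held 28839898 to 34469323 counts each, and edgeR's default filter on low counts left 15935 genes to test. Control and knockdown libraries separated along the first principal component, which took up 45.5% of the variance, and no library stood apart from its group. Replicates of a group differed by more than sampling noise (chi-square per degree of freedom 2.88 to 8.60). Each was counted as a sample, but this spread does not show that they were separate cultures. MAP3K7 fell from 77.3 ± 0.743 to 31.3 ± 2.00 CPM (mean ± SD of 3 samples), with -1.30 as its log2 fold change. CPM is the count relative to the library size, scaled by the trimmed mean of M-values (TMM). The skeletal muscle label of the cells was borne out by MYOD1 at 263 CPM and MYOG at 141 CPM in control cells. Both rose in TAK1 knockdown cells (log2 fold changes 0.37 and 0.27). Other markers of the list were low or absent. MYF5 had 0 counts in every library, MYF6 had 0 or 1, and MEF2C was at 6.07 CPM in control cells. Over the 9 skeletal myogenic markers listed, 7 were tested, of which 3 rose and 1 fell by the thresholds given below. That is 42.9% up and 14.3% down, beside 11.8% and 11.3% of all genes tested. The marker that fell, CHRNA1, a subunit of the acetylcholine receptor, was the most abundant of the list, at 921 CPM in control and 700 CPM in knockdown cells (log2 fold change -0.40, adjusted p = 1.91e-08), and the summed level of the list was 1700 ± 10.4 and 1644 ± 49.2 CPM (SD, n = 3). Of 7 smooth muscle markers, ACTA2, CNN1 and MYOCD were at or near 0, and TAGLN rose from 2.00 to 3.39 CPM. Their summed level ran from 52.8 to 55.2 CPM in control and from 50.4 to 56.6 CPM in TAK1 knockdown cells, nearly all of it SMTN. Of 7 heart muscle markers NPPB, MYL7 and MYBPC3 had 0 counts, and their sum of 28.4 to 35.0 CPM over the 6 libraries was nearly all NKX2-5. Endothelial markers summed to at most 3.65 CPM and white blood cell markers to at most 0.41 CPM in any library.

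Of the 55 sarcomere genes, 48 passed the filter and were tested. In TAK1 knockdown cells 11 of them rose and 3 fell, with an adjusted p under 0.05 by edgeR's quasi-likelihood test and a log2 fold change of 0.25 or more in size. That is 22.9% up and 6.25% down, beside 11.8% up and 11.3% down among all genes tested. Another 5 members with a higher level and 2 with a lower level passed the adjusted p alone. The median log2 fold change over the 48 members was 0.13, with a range from -0.48 to 1.06, beside a median of 0.02 over all genes tested. Without TAK1 knockdown replicate 2 the median over the members was 0.084. The 3 knockdown samples all lay above the 3 control samples for 19 members and all below them for 7. Among all genes tested, such separation upward was seen for 21.6% and downward for 22.2%. In bulk RNA, a change in the number of cells that express these genes and a change in RNA per cell cannot be told apart.

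**Figure D1:**
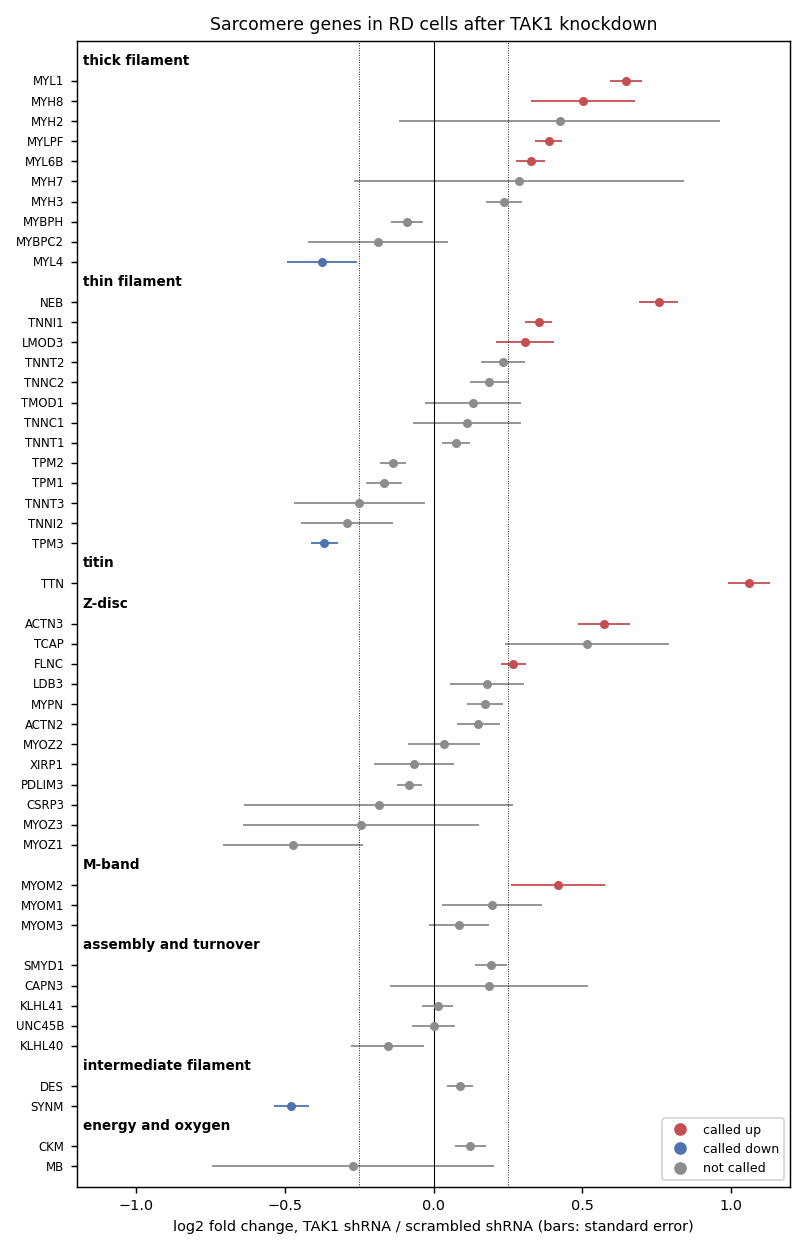
The plot of log2 fold changes shows each of the 48 sarcomere genes tested as a point on the horizontal axis (log2 fold change of TAK1 shRNA over scrambled shRNA, bars of 1 standard error), grouped by part of the sarcomere, with dotted lines at the fold threshold of 0.25 on either side of 0. Red points mark the 11 genes that rose and blue points the 3 that fell; TTN, at 1.06, lies farthest to the right and SYNM, at -0.48, farthest to the left.

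The other 7 sarcomere genes had too few counts to be tested. MYL2, the slow regulatory light chain, TMOD4, a capping protein of thin filaments, and NEBL, a nebulin relative of the Z-disc, had 0 counts in all 6 libraries. A count of 0 allows up to 3 counts, or 0.087 to 0.104 CPM in these libraries (by library size without TMM scaling), a limit that covers counting error only. MYH1, a fast myosin heavy chain, had 0 to 4 counts per library, MYBPC1, slow myosin-binding protein C, had 0 to 5, and LMOD2 had 0 to 2. MYL3, the slow ventricular light chain, had 1 count in 1 control library and 0 in the rest.

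The 2 largest increases belonged to the 2 giant filament proteins. TTN encodes titin, the molecular spring and ruler of the sarcomere, and is found at 178525989 to 178830802 of chromosome 2, minus strand (GRCh38, GENCODE 44, as are all gene positions given here). TTN reached 33.6, 37.2 and 36.1 CPM in the 3 control samples and 72.8, 67.3 and 82.9 CPM in the 3 TAK1 knockdown samples. Every knockdown sample was well above every control sample. The means were 35.6 ± 1.86 and 74.3 ± 7.92 CPM (SD, n = 3), a 2.09-fold rise, with a log2 fold change of 1.06, a standard error of 0.071 and an adjusted p of 1.64e-11 (edgeR's quasi-likelihood test, Benjamini-Hochberg adjustment over the 15935 genes). NEB encodes nebulin, which runs along the thin filament and sets its length, and is found on the same strand at 151485336 to 151734487. NEB reached 174, 183 and 179 CPM in control and 288, 267 and 349 CPM in TAK1 knockdown cells. The groups did not overlap, and the knockdown samples were spread more widely (SD 42.9) than the control samples (SD 4.59). The log2 fold change of NEB was 0.76 (SE 0.065, adjusted p = 1.74e-09). Both kept their call in each of 14 other analyses, which replaced the test, the normalization or the filter, added a replicate term or left out 1 sample.

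The stretches before the start sites of TTN, NEB and MYL1, the 3 members with the largest rise, are shown to place them beside the motifs of the factors that act on muscle genes. The sequences are RefSeq's (GRCh38.p14), written 5′ to 3′ on the minus strand, on which all 3 genes lie, and cut where an annotated exon begins. Capitals mark matches, on both strands, to the E-box CANNTG (bound by MYOD1 and myogenin), the MCAT element CATTCC (bound by TEAD factors), the TATA box TATAAA, the MEF2 motif and the CArG box. The motifs and the 3 genes were chosen after the values were seen. The first window lies at chr2:178807424-178807673 (TTN), the second at chr2:151734488-151734726 (NEB), and the last 2 at chr2:210315175-210315424 and chr2:210303630-210303865 (MYL1, which has 2 start sites).
TTN: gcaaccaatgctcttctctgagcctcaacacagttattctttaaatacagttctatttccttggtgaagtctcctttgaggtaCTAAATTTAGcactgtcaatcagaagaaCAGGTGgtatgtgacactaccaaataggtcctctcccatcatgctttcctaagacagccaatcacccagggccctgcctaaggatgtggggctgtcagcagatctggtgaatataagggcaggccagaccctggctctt
NEB: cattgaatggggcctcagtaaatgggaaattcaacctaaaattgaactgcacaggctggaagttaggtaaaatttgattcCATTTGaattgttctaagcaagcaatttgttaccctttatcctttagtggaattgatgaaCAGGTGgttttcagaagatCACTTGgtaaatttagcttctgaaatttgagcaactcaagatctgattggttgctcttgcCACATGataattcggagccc
MYL1, first start: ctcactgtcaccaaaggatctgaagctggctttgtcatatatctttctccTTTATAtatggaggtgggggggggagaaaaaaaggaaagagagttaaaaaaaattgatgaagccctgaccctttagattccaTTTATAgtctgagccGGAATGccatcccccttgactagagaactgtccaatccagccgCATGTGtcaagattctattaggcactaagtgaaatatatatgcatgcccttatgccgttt
MYL1, second start: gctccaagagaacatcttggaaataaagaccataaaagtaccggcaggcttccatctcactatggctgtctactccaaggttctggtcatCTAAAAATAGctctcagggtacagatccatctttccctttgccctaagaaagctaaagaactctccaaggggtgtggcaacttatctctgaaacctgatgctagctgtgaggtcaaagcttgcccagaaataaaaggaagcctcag

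The TTN window held 1 MEF2 motif and 1 E-box, the NEB window 4 E-boxes, the first MYL1 window 1 E-box, 1 MCAT element and 2 TATA boxes, and the second MYL1 window 1 MEF2 motif. Over all members, 39 genes had 55 windows of 250 bases before a start site, set beside 35116 such windows in the table. The MEF2 motif was present in 11 of the 55 windows of members and in 984 of all windows (2.80%). An E-box was present in 72.7% of the members' windows and in 61.8% of all windows, the form CAGCTG alone in 29.1% and 14.0%. The MCAT element was present in 18.2% and 11.9%, the TATA box in 16.4% and 10.7% and the CArG box in 5.45% and 1.16%. Only 3 of the members' windows had a CArG box, those of LDB3 and MYOM1, and the LDB3 windows overlap one another. Of the 11 members' windows with a MEF2 motif, 3 belonged to genes that rose (TTN, MYL1, MYH8), 7 to genes that were tested and not called and 1 to MYH1, which was not tested. A match describes the letters of a window and does not show that a factor binds there.

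TTN and NEB are also the 2 members with over 20 kb of annotated exon, 119.0 kb for TTN and 33.5 kb for NEB, and this property was looked at after their values were seen. Of the genes tested, 13966 (87.6%) had an exon length in GENCODE 44, 299 of them above 20 kb. Of those 299 genes, 19.1% rose and 8.70% fell, with a median log2 fold change of 0.06. The shares that rose were 7.63%, 10.9%, 13.6% and 15.5% in the shorter classes of under 2, 2 to 5, 5 to 10 and 10 to 20 kb. By log2 fold change TTN ranked 4 and NEB 7 among the 299. The part of length in their rise was not tested. Exons of TTN overlap those of CCDC141 on the same strand, which rose from 9.79 to 15.0 CPM (log2 fold change 0.61, adjusted p = 5.80e-05), and those of the antisense gene TTN-AS1, at 0.67 CPM in control and 1.05 CPM in knockdown cells (adjusted p = 0.191). Exons of NEB overlap RIF1 on the opposite strand, at 129 and 135 CPM (log2 fold change 0.07, adjusted p = 0.303). By GENCODE 44, exons of 9 members overlap another gene on the same strand and those of 22 members a gene on the opposite strand. Whether counting used strand is not given in the sources used here, so reads of such pairs may have been shared.

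**Figure D2:**
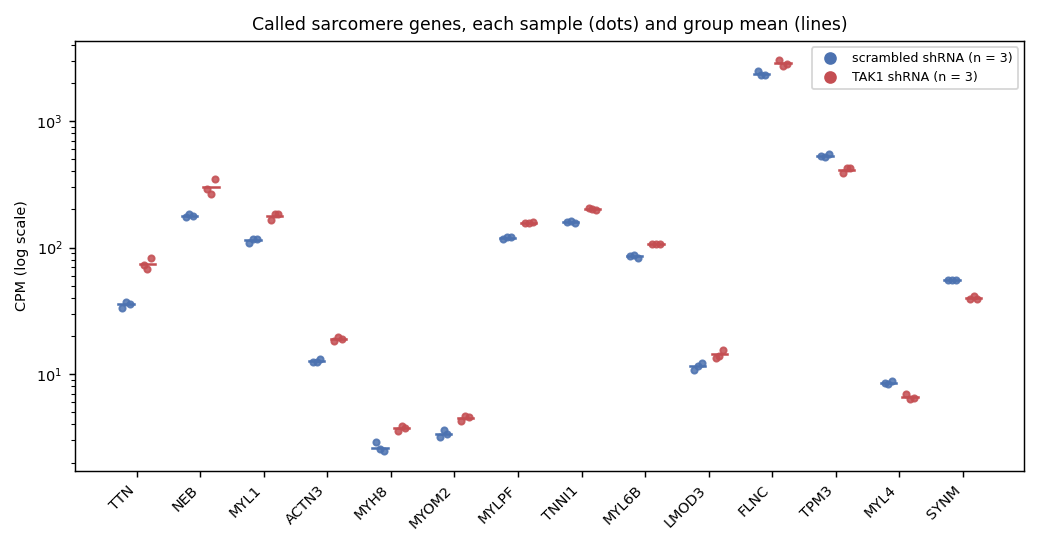
The plot of CPM by sample shows the 14 sarcomere genes that rose or fell, with each of the 3 control samples (blue) and 3 TAK1 knockdown samples (red) as a dot and the group mean as a line, on a log axis. For each of the 14 genes the dots of the 2 groups do not overlap, and the levels span from about 2.46 CPM (MYH8) to 3018 CPM (FLNC).

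In the thick filament, 4 of the 10 genes tested rose and 1 fell, with a median log2 fold change of 0.31. That is 40% up and 10% down, beside 11.8% and 11.3% of all genes tested. Of the 5 listed myosin heavy chains, the motors of the thick filament, MYH1, MYH2, MYH3 and MYH8 lie as a cluster of similar genes on chromosome 17, among which reads may have been split, and MYH7 lies on chromosome 14. MYH3, the embryonic heavy chain (minus strand, 10628526 to 10657309), was at 98.7, 105 and 111 CPM in control and 114, 136 and 120 CPM in TAK1 knockdown cells. The samples did not overlap, and the log2 fold change of 0.24 (SE 0.060, adjusted p = 0.0034) lay just under the fold threshold. It passed that threshold without control replicate 3 (0.28), without knockdown replicate 1 (0.29), with upper-quartile factors (0.25) and with scaling by library size alone (0.28). MYH8, the perinatal heavy chain (minus strand, 10390322 to 10421950), was far lower, at 2.88, 2.54 and 2.46 CPM in control and 3.56, 3.88 and 3.73 CPM in knockdown cells. MYH8 rose with a log2 fold change of 0.50 (SE 0.17, adjusted p = 0.0281). Its adjusted p ran from 0.0564 to 0.0990 when control replicate 2 or 3 or knockdown replicate 2 or 3 was left out. The adult heavy chains were close to absent. MYH2, of fast fibres, had group means of 0.398 ± 0.357 and 0.518 ± 0.232 CPM, and MYH7, of slow fibres, 0.416 ± 0.283 and 0.493 ± 0.338 CPM (SD, n = 3), and neither difference passed the test.

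The light chains, which bind the neck of myosin, gave the larger part of the thick filament's calls. MYL1, the essential light chain of fast fibres (chromosome 2, minus strand, 210290150 to 210315174), was at 109, 116 and 117 CPM in control and 164, 185 and 185 CPM in TAK1 knockdown cells. The promoter windows of MYL1 are those printed beside TTN and NEB. The change was a 1.57-fold rise (log2 fold change 0.65, SE 0.053, adjusted p = 7.30e-10) with no overlap between the groups. MYLPF, the regulatory light chain of fast fibres (chromosome 16, plus strand, 30370934 to 30377991), was at 118, 121 and 121 CPM in control and 156, 156 and 158 CPM in knockdown cells. MYLPF rose by a log2 fold change of 0.39 (SE 0.046, adjusted p = 3.71e-07), with samples of each group close together. MYL6B, an essential light chain of slow muscle and of non-muscle cells (chromosome 12, plus strand, 56152256 to 56159647), was at 85.6, 86.9 and 83.0 CPM in control and 106, 108 and 107 CPM in knockdown cells. It rose by a log2 fold change of 0.33 (SE 0.049, adjusted p = 1.05e-05). Its exons overlap MYL6 on the same strand, which was at 342 and 339 CPM and had a log2 fold change of -0.01 (adjusted p = 0.871). MYL4, the essential light chain of embryonic muscle and of the atria (chromosome 17, plus strand, 47200446 to 47223679), went the other way. MYL4 was at 8.44, 8.32 and 8.89 CPM in control and 7.01, 6.37 and 6.42 CPM in knockdown cells. The groups did not overlap, and MYL4 fell with a log2 fold change of -0.37 (SE 0.12, adjusted p = 0.0148; 0.0643 without control replicate 3). The myosin-binding proteins did not pass the test, with log2 fold changes of -0.09 for MYBPH (adjusted p = 0.221) and -0.19 for MYBPC2 (adjusted p = 0.596). Summed over its 14 genes, the thick filament reached 515 to 538 CPM in control and 642 to 686 CPM in knockdown samples. The thin filament summed to 1897 to 1944 CPM in control and 1872 to 2024 CPM in knockdown samples, so its groups overlapped. The Z-disc summed to 2723 to 2925 CPM in control and 3142 to 3446 CPM in knockdown samples, most of it FLNC.

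The median log2 fold change of the thin filament was 0.11. Of its 13 genes tested, 3 rose and 1 fell (23.1% and 7.69%, beside 11.8% and 11.3% of all genes tested). Besides NEB, these were TNNI1 and LMOD3 upward and TPM3 downward. TNNI1, the inhibitory troponin of slow fibres and of developing muscle (chromosome 1, minus strand, 201403784 to 201429866), was at 159, 161 and 155 CPM in control and 206, 202 and 199 CPM in TAK1 knockdown cells. All knockdown samples lay above all control samples, and the log2 fold change was 0.35 (SE 0.045, adjusted p = 1.01e-06). LMOD3, a leiomodin that starts actin filaments in muscle (chromosome 3, minus strand, 69106065 to 69123032), was at 10.8, 11.7 and 12.2 CPM in control and 13.4, 14.0 and 15.6 CPM in knockdown cells. LMOD3 rose by a log2 fold change of 0.31 (SE 0.098, adjusted p = 0.0167), and the call did not hold without control replicate 1 (adjusted p = 0.0807), control replicate 2 (0.0507) or knockdown replicate 3 (0.103). Its exons overlap ARL6IP5 on the opposite strand, which had a log2 fold change of 0.06.

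Tropomyosins, which lie along actin and gate the access of myosin, were lower in knockdown cells in all 3 cases tested. TPM3, the slow tropomyosin (chromosome 1, minus strand, 154155308 to 154194648), was at 528, 520 and 545 CPM in control and 389, 423 and 424 CPM in TAK1 knockdown cells. It fell with a log2 fold change of -0.37 (SE 0.045, adjusted p = 5.04e-07), with no overlap between the groups. TPM2 (chromosome 9, minus strand, 35681992 to 35690056) was at 398, 393 and 407 CPM in control and 349, 376 and 365 CPM in knockdown cells, again without overlap. Its log2 fold change of -0.14 (adjusted p = 0.0175) was under the fold threshold, as was that of TPM1, -0.17 (adjusted p = 0.0385). The tropomyosin genes also make forms used outside muscle, and counts per gene do not separate muscle from non-muscle transcripts.

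TNNT1, the slow troponin T that ties troponin to tropomyosin (chromosome 19, minus strand, 55132698 to 55149206), was at 493, 475 and 490 CPM in control and 475, 547 and 513 CPM in knockdown cells. The groups overlapped, and the log2 fold change was 0.07 (SE 0.048, adjusted p = 0.246). TNNT2, the troponin T of heart and embryonic muscle, had a log2 fold change of 0.23 (adjusted p = 0.0162), under the fold threshold. It passed both thresholds without control replicate 3 (0.27), without knockdown replicate 1 (0.31) or 3 (0.26), with upper-quartile factors (0.25) and with library size alone (0.28). TNNT3, the fast troponin T, was at -0.25 (SE 0.22, adjusted p = 0.424), and its value of -0.58 without knockdown replicate 2 had an adjusted p of 0.0466. The calcium-binding troponin of fast fibres, TNNC2, had a log2 fold change of 0.19 (adjusted p = 0.0274), and its slow counterpart TNNC1 0.11 (adjusted p = 0.686).

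In the Z-disc, 2 of the 12 genes tested rose and 0 fell by edgeR's test, with a median log2 fold change of 0.09. That is 16.7% up and 0% down, beside 11.8% and 11.3% of all genes tested. DESeq2 and voom also called 0 downward, and at an unadjusted p under 0.05 the counts of lower genes were 0, 1 and 0 by edgeR, DESeq2 and voom. FLNC, filamin C, a crosslinker of actin at the Z-disc and the membrane (chromosome 7, plus strand, 128830406 to 128859274), had the highest CPM of the 55 genes. It was at 2497, 2318 and 2291 CPM in control and 3018, 2714 and 2828 CPM in TAK1 knockdown cells, with no overlap. Its antisense neighbour FLNC-AS1 was at 0.81 and 1.11 CPM. The log2 fold change of FLNC, 0.27 (SE 0.043, adjusted p = 2.60e-05), was just above the fold threshold and just under it without control replicate 3 (0.24) or knockdown replicate 1 (0.23). ACTN3, the alpha-actinin of fast fibres (chromosome 11, plus strand, 66546395 to 66563334), was at 12.6, 12.4 and 13.2 CPM in control and 18.2, 19.8 and 18.8 CPM in knockdown cells. ACTN3 rose by a log2 fold change of 0.57 (SE 0.087, adjusted p = 1.09e-05), and the 2 groups were well apart. The other sarcomeric alpha-actinin, ACTN2, had a log2 fold change of 0.15 (adjusted p = 0.116). PDLIM3, a PDZ and LIM domain protein that binds alpha-actinin (chromosome 4, minus strand, 185500660 to 185535507), was at 307, 301 and 308 CPM in control and 288, 289 and 289 CPM in knockdown cells. Its groups did not overlap either, but the difference was small, with a log2 fold change of -0.08 (SE 0.042, adjusted p = 0.151). MYPN, myopalladin, passed the adjusted p alone (log2 fold change 0.17, adjusted p = 0.0308). LDB3, which binds alpha-actinin through its PDZ domain, was at 0.18 (adjusted p = 0.287), and without knockdown replicate 3 it was at 0.31 with an adjusted p of 0.0437. The remaining Z-disc genes, among them the myozenins, which tether calcineurin, and the titin cap TCAP, ran from -0.47 (MYOZ1) to 0.52 (TCAP), with standard errors of up to 0.45 (CSRP3).

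At the M-band, MYOM2, the myomesin of fast fibres (chromosome 8, plus strand, 2045046 to 2165552), was at 3.17, 3.59 and 3.34 CPM in control and 4.24, 4.70 and 4.54 CPM in TAK1 knockdown cells. It rose with a log2 fold change of 0.42 (SE 0.16, adjusted p = 0.0432), close to the threshold. The call did not hold with DESeq2 (adjusted p = 0.0684), with limma's voom (0.0538) or with every row that had a count (0.0777), nor when any 1 sample other than knockdown replicate 1 was left out (0.0653 to 0.119). MYOM1 and MYOM3 had log2 fold changes of 0.20 (adjusted p = 0.408) and 0.08 (adjusted p = 0.571).

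Of the 2 intermediate filament genes, which link sarcomeres to one another, only SYNM fell. SYNM, synemin (chromosome 15, plus strand, 99098217 to 99135593), was at 55.8, 55.2 and 55.6 CPM in control and 39.3, 41.4 and 39.0 CPM in knockdown cells. The 3 control samples lay within 1 CPM of each other and above every knockdown sample. The log2 fold change of -0.48 (SE 0.060, adjusted p = 7.22e-07) was the lowest of the 48 members. DES, desmin, was at 340 ± 5.05 CPM in control and 362 ± 10.2 CPM in knockdown cells (SD, n = 3), with a log2 fold change of 0.09 (adjusted p = 0.119).

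Of the 5 genes for assembly and turnover of the sarcomere, 0 passed both thresholds by edgeR, DESeq2 or voom. Among all genes tested, 11.8% rose and 11.3% fell by edgeR, so a count of 0 among 5 genes says little. By each of these tools, 1 of the 5 had an unadjusted p under 0.05. That gene was SMYD1, a methyltransferase that acts with myosin chaperones, with a log2 fold change of 0.19 (adjusted p = 0.00621). UNC45B, the muscle myosin chaperone, was at -0.00 (SE 0.072), and KLHL41, a kelch protein that stabilises nebulin, at 0.01 (SE 0.053). KLHL40 was at -0.15 (adjusted p = 0.365) and the protease CAPN3 at 0.19 (adjusted p = 0.719). Of the genes for energy and oxygen, the muscle creatine kinase CKM went from 70.0 ± 1.17 to 76.3 ± 1.97 CPM (log2 fold change 0.12, adjusted p = 0.0734). Myoglobin, MB, had at most 14 counts in any library.

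By isoform class, 2 of 5 embryonic and perinatal genes tested rose (MYH8 and MYL6B) and 1 fell (MYL4), with a median log2 fold change of 0.24. The list places MYL6B in this class, although it is also a light chain of slow muscle and of non-muscle cells. The share that rose in this class therefore depends on where MYL6B is placed. Of 10 fast genes, 3 rose (MYL1, MYLPF, ACTN3) and 0 fell, both by edgeR and by DESeq2 or voom, and 0 were lower at an unadjusted p under 0.05. Their median was 0.00, since 5 of the 10 had a lower level in knockdown cells. Of 6 slow genes, 1 rose (TNNI1) and 1 fell (TPM3), with a median of 0.09. The shares that rose were 40% (embryonic and perinatal), 30% (fast) and 16.7% (slow), and those that fell 20%, 0% and 16.7%. Among all genes tested, 11.8% rose and 11.3% fell. The difference between classes was not tested. Summed per kb of exon, the fast genes reached 243 to 252 CPM per kb in control and 323 to 345 CPM per kb in TAK1 knockdown samples, most of it from MYLPF and MYL1. The slow genes summed to 285 to 295 CPM per kb in control and 283 to 320 CPM per kb in knockdown samples, so these groups overlapped. Most of the slow sum came from TNNT1, at 229 CPM per kb in control and 241 CPM per kb in knockdown cells, which was not called. The embryonic and perinatal genes summed to 53.8 to 55.6 CPM per kb in control and 62.3 to 67.8 CPM per kb in knockdown samples. Of these sums MYL6B gave 26.1 ± 0.606 CPM per kb in control and 32.8 ± 0.190 CPM per kb in knockdown samples (SD, n = 3).

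Within each family, the share of each gene was taken from its CPM per kb, a description added after the values were seen. MYH3 made up 96.5% ± 0.941 of the 5 listed heavy chains in control and 95.9% ± 0.258 in TAK1 knockdown cells (SD, n = 3). MYH8 was at 2.68% ± 0.364 and 3.20% ± 0.167, and for both genes the ranges of the 2 groups overlapped. Among the essential light chains, MYL1 went from 73.2% ± 0.850 to 78.4% ± 1.25, MYL6B from 22.3% ± 0.860 to 19.2% ± 0.994 and MYL4 from 4.46% ± 0.168 to 2.37% ± 0.261. The fast isoform thus took a larger share in each knockdown sample than in any control sample, and the embryonic isoform a smaller one. In troponin I the slow gene, TNNI1, held 82.1% ± 1.30 in control and 87.7% ± 1.54 in knockdown cells, and the fast gene, TNNI2, 17.9% and 12.3%. ACTN3 went from 70.5% ± 1.53 to 76.2% ± 0.446 of the 2 alpha-actinins. Of the 3 listed tropomyosins (TPM1, TPM2 and TPM3), TPM2 went from 76.5% ± 0.106 to 79.0% ± 0.317 and TPM3 from 21.4% ± 0.136 to 18.8% ± 0.358. With TPM4 of the wider set added, TPM2 held 57.7% and 65.1%, TPM4 24.6% and 17.7% and TPM3 16.1% and 15.5%. Troponin C was mostly fast (TNNC2, 93.8% and 94.2%) and troponin T mostly slow (TNNT1, 96.4% and 96.2%). For both of these genes the ranges of the 2 groups overlapped. TNNT2, the troponin T of heart and embryonic muscle, went from 3.05% ± 0.107 to 3.38% ± 0.246. Its share was larger in each knockdown sample than in any control sample. These shares depend on the exon length used. With the longest annotated transcript, MYL1 held 59.2% and 65.5%, MYL6B 35.7% and 31.7% and MYL4 5.08% and 2.78% of the essential light chains in control and knockdown cells, and ACTN3 60.7% and 67.4% of the alpha-actinins.

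**Figure D3:**
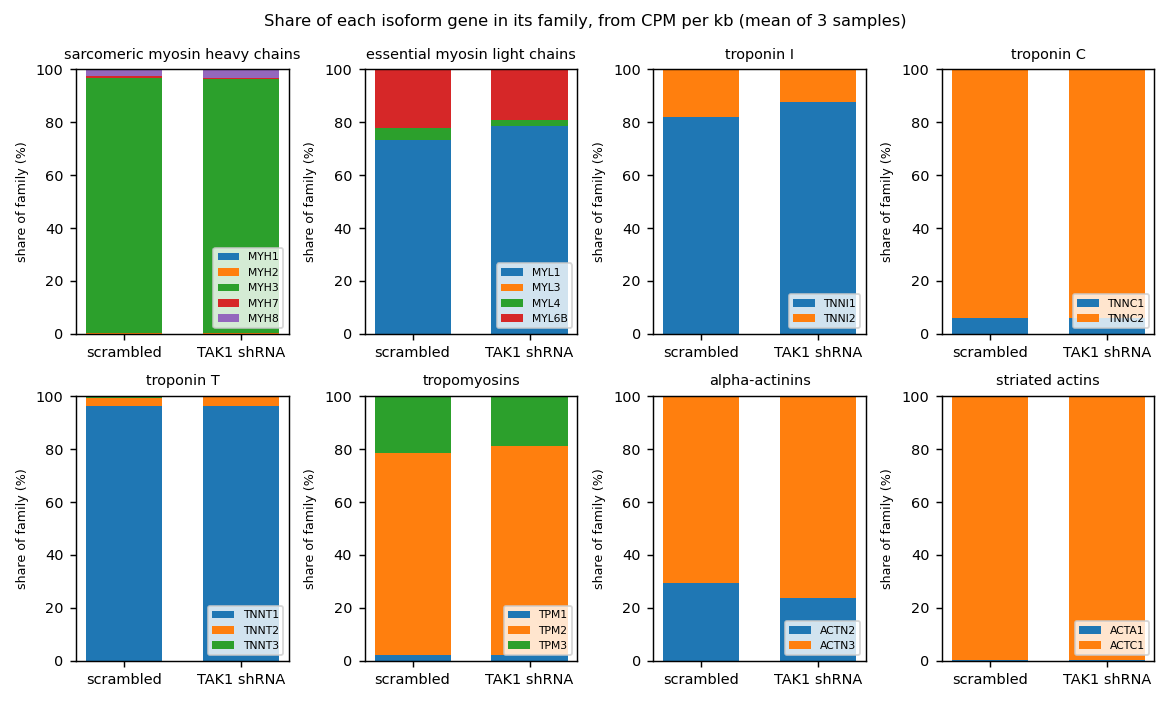
The stacked bars show, for 8 families, the share of each isoform gene (vertical axis, percent of the family's summed CPM per kb, mean of 3 samples) in scrambled and TAK1 shRNA cells. MYL1 grows from 73.2% to 78.4% of the essential light chains and TNNI1 from 82.1% to 87.7% of troponin I, while MYH3 fills over 95% of the heavy chains in both groups.

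Per kb of exon, the tested sarcomere genes of control cells ran from 0.0625 CPM per kb (MYH2) to 256 CPM per kb (FLNC). The highest levels were those of FLNC (256 CPM per kb), TNNT1 (229), DES (137), TPM2 (125), MYLPF (110) and MYL1 (85.8). In thick, thin and Z-disc parts the 2 highest genes were MYLPF and MYL1, TNNT1 and TPM2, and FLNC and PDLIM3. DES and TPM2 differed by more than their spread (SD 2.03 and 2.18), and FLNC exceeded TNNT1 by more than the spread of either (SD 12.1 and 4.61). With the longest annotated transcript as the length, TNNT1 (437 CPM per kb) came before FLNC (259), and TPM2 (253) and MYLPF (183) before DES (152), so this order depends on the length used. TTN, despite its rise, remained at 0.625 ± 0.0666 CPM per kb in TAK1 knockdown cells (SD, n = 3), below the 5.33 ± 0.137 CPM per kb that NEB had in control cells. The 55 genes together summed to 6009 ± 85.7 CPM in control and 6742 ± 73.4 CPM in knockdown cells. Without FLNC the sums were 3641 ± 37.7 and 3888 ± 103 CPM.

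**Figure D4:**
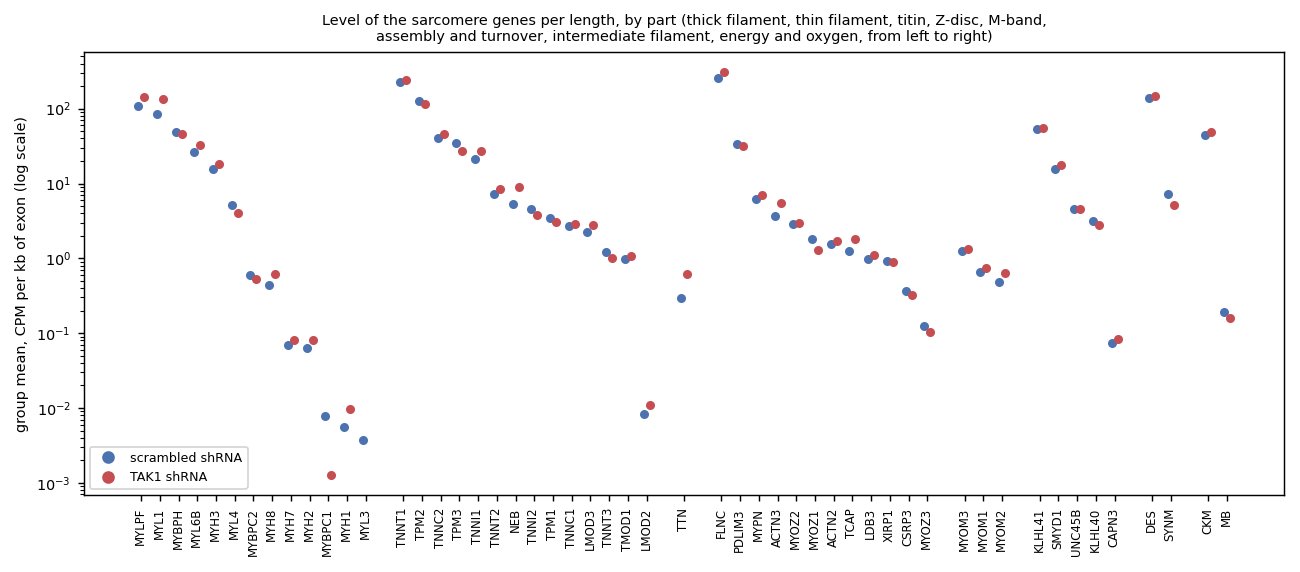
The plot of levels shows the group mean of each sarcomere gene in CPM per kb of exon (vertical axis, log scale), in scrambled shRNA (blue) and TAK1 shRNA cells (red), ordered within each part by the level in control cells. MYL2, TMOD4 and NEBL, with 0 counts, are not drawn, nor is MYL3 in TAK1 shRNA cells; FLNC and TNNT1 lie highest in both groups, and DES, TPM2 and MYLPF also lie above 100 CPM per kb in both.

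Of the wider set of 52 other genes of the sarcomere and its upkeep, 39 were tested, of which 9 rose and 8 fell. That is 23.1% and 20.5%, beside 11.8% and 11.3% of all genes tested. The median log2 fold change of the wider set was 0.04. ACTC1, the cardiac alpha-actin that is also the main sarcomeric actin of embryonic muscle, was at 668, 655 and 651 CPM in control and 907, 844 and 846 CPM in TAK1 knockdown cells (log2 fold change 0.40, SE 0.042, adjusted p = 5.38e-08). ACTA1, the adult skeletal actin, was at 1.62 ± 0.112 and 1.17 ± 0.064 CPM (SD, n = 3) and did not pass the test (log2 fold change -0.47, adjusted p = 0.191). The muscle kinase family proteins SPEG (0.55) and ALPK3 (0.58), the Z-disc proteins SYNPO2 (0.49) and SYNPO2L (0.63), TRIM54 (0.58), CMYA5 (0.55) and SMPX (0.59) also rose. TRIM54 was not called without control replicate 2 or knockdown replicate 2 or 3 (adjusted p = 0.0554 to 0.0874), nor CMYA5 without control replicate 1 (adjusted p = 0.0529). HSPB8 (-1.26) and its partner BAG3 (-0.65), which clear damaged filamin, fell, as did the tropomyosin TPM4 (-0.79), PDLIM5 (-0.80), FHL2 (-0.38), CAPZA2 (-0.37), PALLD (-0.34) and FHL3 (-0.30). TPM4, PDLIM5, CAPZA2 and PALLD are also used in the cytoskeleton of other cell types.

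**Figure D5:**
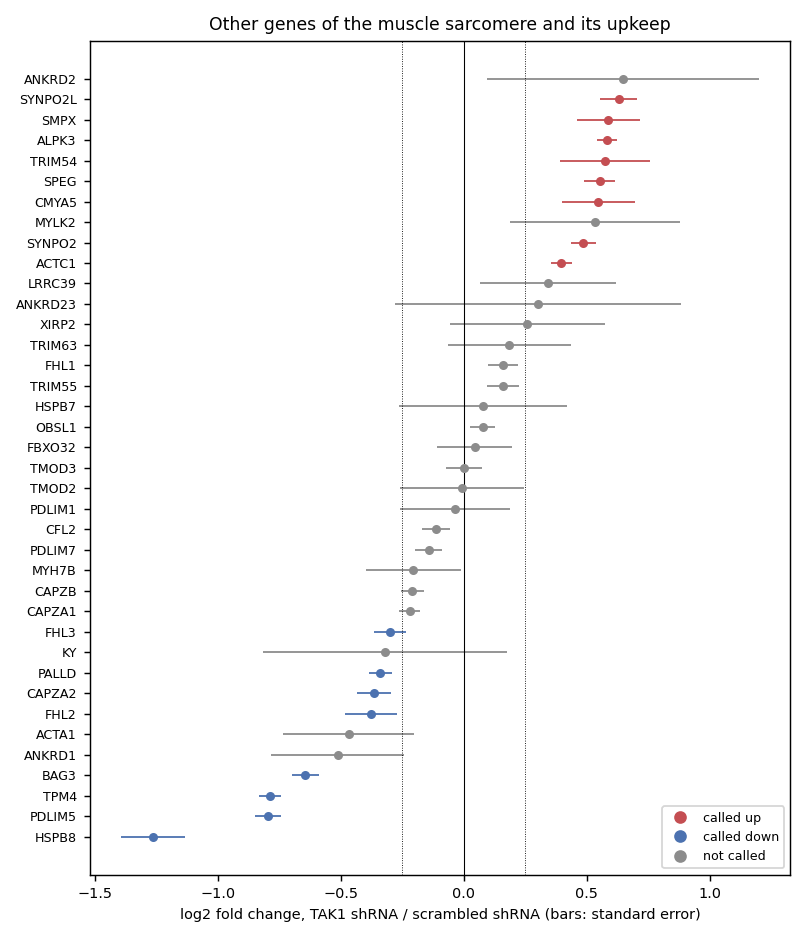
The plot shows the log2 fold change of TAK1 shRNA over scrambled shRNA (horizontal axis, bars of 1 standard error) for 38 of the 39 tested genes of the wider set, with dotted lines at 0.25 on either side of 0. The 8 drawn genes that rose (red) run from ACTC1 at 0.40 to SYNPO2L at 0.63, and the 8 that fell (blue) from FHL3 at -0.30 to HSPB8 at -1.26.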

How the data were processed

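Poly(A)-enriched RNA of RD cells was sequenced in 3 samples with scrambled shRNA and 3 with TAK1 shRNA, grouped by their labels. The deposited values are raw counts of reads per gene, without normalization. The authors called bases with CASAVA, filtered reads for adaptors and quality and mapped the rest to GRCh38 (hg38) with STAR, versions not stated; the counter, annotation release and strand setting are not given in the sources used here. Counts were filtered with filterByExpr, normalized by TMM and compared with the quasi-likelihood test in edgeR 4.0.16 (R 4.3.3), with Benjamini-Hochberg adjustment over all genes tested (thresholds as in the study, 0.05 for the adjusted p and 0.25 for the size of the log2 fold change). Standard errors are the log2 fold change over the square root of F. CPM per kb used summed exon lengths from GENCODE 44, where MYLPF is listed as MYL11. Alternatives were DESeq2 1.42.0, limma 3.58.1 (voom), other normalizations, filters and fold thresholds, the replicate number as a block and the omission of each sample. The scripts were tested on simulated data. All 55 members were examined; those given in every sample are the genes called, the 2 highest per kb in thick filament, thin filament and Z-disc, and MYH3. Of the wider set the genes called, ACTA1 and ACTC1 are named, and MAP3K7 is named as the target (1 gene of the wider set is not reported here); other members are given by counts and ranges or where a comparison of isoforms or parts needs them. The members and lists were chosen with earlier results of these data known, and were described without set tests.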

Additional observations from a re-analysis of the deposited data

How the results depend on the processing

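With 3 samples per group, from 1 cell line and 1 construct, the values describe these samples and no others. Of the 14 sarcomere genes called, 9 kept the call in all 14 other analyses of single genes; MYOM2, MYH8, LMOD3, FLNC and MYL4 did not, with the values given above. Of the 34 not called, 4 gained a call in at least 1 analysis (MYH3, TNNT2, TNNT3 and LDB3). The cause was not tested. Without a fold threshold 2569 genes rose and 2734 fell, among them 16 and 5 members. With a fold threshold of 0.5 these were 735 and 680 genes and 5 and 0 members. The lowest of the 48 was -0.48 by edgeR's test, so that 0 is also the count at an unadjusted p, and -0.48 by DESeq2 and voom. Leaving out 1 sample in turn gave 1582 to 1810 genes up and 1675 to 1931 down, 8 to 12 members up and 2 to 4 down, and a member median of 0.084 (without TAK1 knockdown replicate 2) to 0.14. With library size alone the member median was 0.18, and 62.9% of calls over all genes were upward against 51.0%, with a median of 0.07 over all genes against 0.02. DESeq2 called 1685 genes up and 1804 down (10 and 3 members) and voom 1818 and 1806 (10 and 3 members). Samples with the same replicate number hardly deviated together (r = 0.037, 0.036 and 0.016), and control replicate 3 correlated better with knockdown replicate 2 (0.019), so the number was not taken to pair them. With the replicate number as a block, 1942 genes rose and 1848 fell, 11 and 3 members were called, and the member median was 0.13. Per kb, levels moved with the length used, as given above.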
